A study of Homo sapiens with 6 samples.

Results

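The genes described here are those of the cytosolic ribosomal proteins, which with the ribosomal RNAs make up the machine that translates mRNA into protein. The array held 22215 probe sets other than controls, a probe set being the group of short probes that together give 1 signal for a transcript, and 19064 of them were annotated to a single gene symbol. Of these, 96 probe sets carried the symbol of a ribosomal protein (RPL or RPS with a number, RPLP0, RPLP1, RPLP2 or RPSA), and they covered 58 genes, 36 of the large subunit and 22 of the small subunit. S6 kinases, mitochondrial ribosomal proteins and pseudogenes were left out. Of the 96 probe sets, 89 from 56 genes had a mean signal of at least 44 units and were tested. The 7 below that minimum included the only probe sets of RPS4Y1 and RPL3L. RPLP0, RPL5, RPSA, RPL26, RPL36A, RPL10, RPL22L1 and RPL7L1 had no probe set annotated to that symbol alone, so they are not analysed here.

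Ribosomal proteins are built into the small subunit, which decodes the mRNA, and the large subunit, which joins the amino acids. Their mRNAs are among the most abundant of a growing cell, and most of them start with a 5′ terminal oligopyrimidine tract (5′ TOP), a C at the cap followed by a run of C and T, through which mTORC1 and LARP1 control their translation as a group. Free ribosomal proteins are degraded quickly, and several, among them RPL11, can bind MDM2 when assembly fails. Ribosome assembly itself takes place in the nucleolus with the help of RNA polymerase I and many assembly factors.

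The samples were 3 populations of MDA-MB-231, a human triple-negative breast cancer cell line with mesenchymal traits: the parental line and the isolates MDA-MB-231 S1a and S1b. Per the labels, S1a and S1b are the first and the second isolated population of seeder cells, tumour cells that re-enter a tumour from the circulation, and neither was given a further treatment or genetic change in the labels. All were grown subconfluent in DMEM with 10% serum, and total RNA of each was measured on 2 arrays that the titles call biological replicates. Separate cultures are not named, so the p-values rest on array-to-array spread, which may be technical. Each isolate is 1 population, and no isolate of other cells was measured, so an effect of isolation and one of seeding cannot be told apart. An array gives the mean over all cells of a culture, in which fewer cells with a transcript and less of it per cell cannot be told apart.

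All 6 arrays had been scaled to a trimmed mean of 500.2 units, and their number limits the precision. Their median signals ran from 87.6 to 106 units, with both parental arrays highest. Their 99.9th percentiles ran from 20300 to 24000 units on the 4 isolate arrays and were 27000 and 34700 units on the parental arrays, the second of which stood apart. Genes that mark this line (VIM, CD44, MSN, LGALS1 and CAV1) lay between 2730 and 27200 units on every array, and markers of luminal or epithelial breast cells (ESR1, PGR, ERBB2, CDH1, EPCAM and TFF1) between 1.22 and 495 units. Markers of other cells were dim: 3 leukocyte genes at 9.07 to 103 units, 3 endothelial genes at 3.12 to 57.8 and 5 fibroblast genes at 0.161 to 148. The summed fibroblast markers ran from 329 to 395 units on the parental arrays and from 174 to 206 on the isolate arrays. The leukocyte sum ran from 139 to 158 against 61.1 to 146, and the endothelial sum from 39.8 to 59.6 against 66.3 to 104. The luminal and epithelial sum ran from 825 to 899 units on the parental arrays and from 578 to 697 on the isolate arrays. The part of these differences in the results below was not tested.

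The 5′ ends of 12 of these genes are shown because a tract at the start is shared by most of the family and missing at the annotated start of others. Each window runs from 40 bases before the transcription start annotated in RefSeq (GRCh38.p14) to 20 bases from it onward, 5′ to 3′ in the direction of the gene, and capitals mark the tract, a C at the start followed by at least 4 C or T. The genes with a tract come before those without one. RPL34 and RPS19 each have another annotated start, not shown, that has no tract.
RPS18, chr6:33272035-33272094, plus strand: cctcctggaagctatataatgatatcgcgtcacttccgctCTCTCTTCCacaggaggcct
RPS19, chr19:41860215-41860274, plus strand: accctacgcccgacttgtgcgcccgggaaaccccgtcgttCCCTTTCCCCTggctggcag
RPL34, chr4:108620536-108620595, plus strand: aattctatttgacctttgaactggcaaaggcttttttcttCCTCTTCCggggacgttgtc
RPL39, chrX:119791611-119791670, minus strand: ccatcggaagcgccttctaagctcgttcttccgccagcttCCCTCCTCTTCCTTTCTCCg
RPL41, chr12:56116593-56116652, plus strand: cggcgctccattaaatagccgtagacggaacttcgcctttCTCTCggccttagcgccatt
RPL31, chr2:101002249-101002308, plus strand: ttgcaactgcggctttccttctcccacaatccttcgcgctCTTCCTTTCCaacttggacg
RPL38, chr17:74203638-74203697, plus strand: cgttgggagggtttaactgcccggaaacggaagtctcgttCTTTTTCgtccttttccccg
RPS21, chr20:62387063-62387122, plus strand: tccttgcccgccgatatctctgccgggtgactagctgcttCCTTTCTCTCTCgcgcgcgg
RPL22, chr1:6199576-6199635, minus strand: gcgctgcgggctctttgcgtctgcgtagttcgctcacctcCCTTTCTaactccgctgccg
RPS27, chr1:153990722-153990781, plus strand: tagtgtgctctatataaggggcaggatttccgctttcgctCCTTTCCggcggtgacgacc
RPS27L, chr15:63157458-63157517, minus strand: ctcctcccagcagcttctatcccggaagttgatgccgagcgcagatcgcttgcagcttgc
RPS4X, chrX:72277229-72277288, minus strand: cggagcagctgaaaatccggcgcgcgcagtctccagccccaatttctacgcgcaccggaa

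RefSeq's promoter table held an entry for 50 of the 58 genes. Of these 50 genes, 34 (68%) had a tract at an annotated start, of 5 to 19 bases, against 1404 of the 27305 genes in the table (5.14%). Counted by start instead, 34 of 58 entries of these genes (58.6%) and 1429 of all 35116 entries (4.07%) had one. The tract was searched only on the gene's own strand and only at the annotated start, so a gene without a match has no tract at that base. RPS27, the zinc-finger protein of the small subunit, and its paralogue RPS27L differ in this way in the windows above.

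On the scale as deposited, the share of ribosomal protein signals called lower in the isolates was above that of all signals, and on a scale that gives every array the same distribution of values (quantile normalization) it was below it. For the mean of S1a and S1b against parental, 34 of the 89 probe sets (38.2%) were lower and 6 (6.74%) higher at an adjusted p below 0.05 in limma, adjusted over all 11860 probe sets tested. Of all probe sets tested, 22.6% were lower and 20.1% higher. The median log2 change of the members, a difference of log2(signal + 3.949), was -0.21, and that of all probe sets was -0.04. After quantile normalization 9 members (10.1%) were lower and 25 (28.1%) higher, against 19.5% and 22.9% of all probe sets, and the medians were 0.04 and 0.03. The share of members called lower stood above that of all probe sets on the deposited scale and below it on the quantile scale. The first of these rested on the variance model too: on the deposited scale without a variance trend, limma called 16 members (18%) lower, against 19.4% of all probe sets.

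Single members moved across the threshold between these scales, but none changed from a call in 1 direction to a call in the other. Of the 34 lower calls on the deposited scale, 9 were also lower after quantile normalization and 25 were not called. All 6 members that rose on the deposited scale rose on the quantile scale too, where 19 further members passed. The remaining 30 passed on neither scale. When each array was centred on its median instead, 4 members were lower and 12 higher, against 13.3% and 31.3% of all probe sets. That scaling moved the median of all probe sets to 0.15, and the member median was -0.02. With cyclic loess, 42 members were lower and 8 higher, against 20.7% and 21.5%. The deposited count of lower calls and the median of the members changed when single arrays were left out. In each of these fits fewer of all probe sets were called. The member median was -0.33 without the first parental array and -0.13 without the second, against -0.02 and -0.07 for all probe sets.

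**Figure D1:**
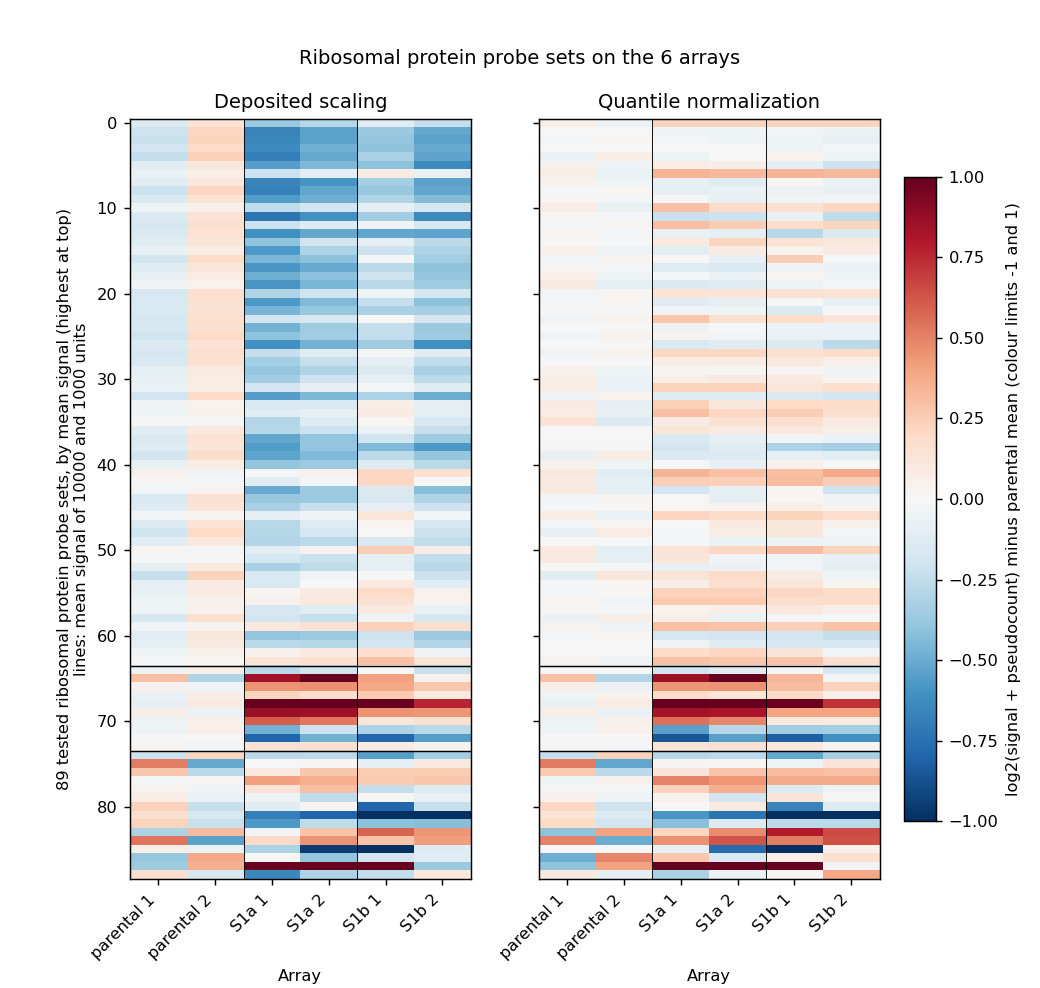
Heat map of the 89 tested ribosomal protein probe sets (y axis, ordered by mean signal, highest at the top, with lines at 10000 and 1000 units) on the 6 arrays (x axis). Colour gives log2(signal + pseudocount) minus the mean of both parental arrays, limited to -1 and 1, on the deposited scale (left) and after quantile normalization (right). The 64 bright members in the upper block are mostly blue in the isolates on the left and near white on the right, and the second parental array is above the first in 60 of them.

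The members' levels on each array are given next without a test, on the deposited scale unless said otherwise. The signals of all 96 probe sets made up 7.56% and 8.36% of the summed signal for parental, 6.73% and 7.07% for S1a and 7.50% and 6.93% for S1b. The lower parental array thus stood only just above the higher S1b array. The means were 7.96% ± 0.57 (SD, n = 2) for parental, 6.90% ± 0.24 (SD, n = 2) for S1a and 7.22% ± 0.40 (SD, n = 2) for S1b.

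Most members were bright: 64 of the 89 had a mean signal of at least 10000 units. The median of these 64 was 19420 and 23470 units for parental, 16420 and 17920 for S1a, and 19580 and 17980 for S1b. The first S1b array therefore lay above the first parental array. The second parental array was higher than the first for 60 of the 64, with a median ratio of 1.18, and was the highest of all 6 arrays for 49. The second S1a array was above the first for 60 members, with a median ratio of 1.06, and the first S1b array was above the second for all 64, with a median ratio of 1.11. These members thus moved up and down together between arrays of the same population. In 32 of the 64, all 4 isolate arrays were below both parental arrays, and in 2 they were above both. Among all probe sets tested, of any signal, 29.5% lay fully below and 24.8% fully above. The same shares among other bright probe sets were not counted. After quantile normalization the median of the 64 was 18880 and 19020 for parental, 19180 and 19540 for S1a, and 19310 and 19300 for S1b. On that scale all 4 isolate medians lay above both parental ones.

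The lower signal of the bright members was shared by other bright probe sets. The ranges of mean signal used for this comparison were chosen after the values were seen. Above 20000 units, the median log2 change was -0.41 for 25 ribosomal protein probe sets and -0.47 for 22 others. Of these, 17 of the 25 (68%) and 19 of the 22 (86.4%) were called lower. The 22 others came from only 13 genes, among them EEF1A1 and NPM1, which are described below. Between 15000 and 20000 units the medians were -0.22 for 26 members and -0.24 for 31 others, and between 10000 and 15000 units -0.07 for 13 members and -0.09 for 92 others. After quantile normalization the medians in these 3 ranges were -0.04, 0.05 and 0.09 for members and -0.07, 0.03 and 0.02 for others. Quantile normalization keeps only ranks, and members hold many of the top ranks, so there they are set partly against each other.

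**Figure D2:**
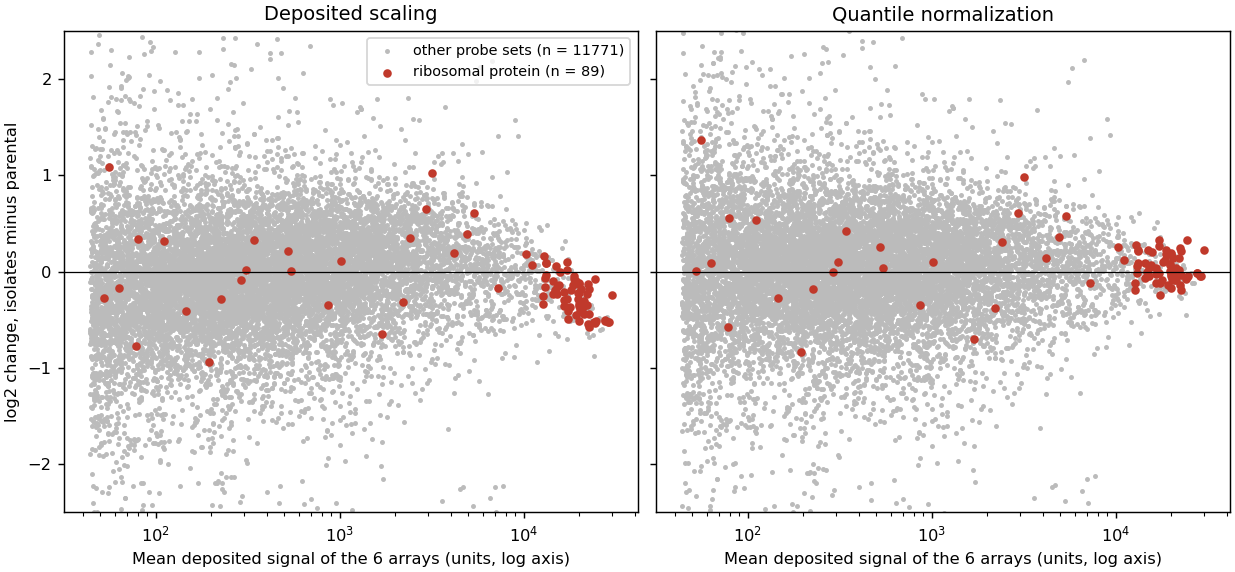
Log2 change of the isolates against parental (y axis) by mean deposited signal of the 6 arrays (x axis, log scale) for 89 ribosomal protein probe sets (red) and 11771 other tested probe sets (grey), before (left) and after (right) quantile normalization. Among bright probe sets both colours slope downward on the left and lie around 0 on the right; 132 grey points on the left and 134 on the right lie beyond 2.5 and are not drawn.

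**Figure D3:**
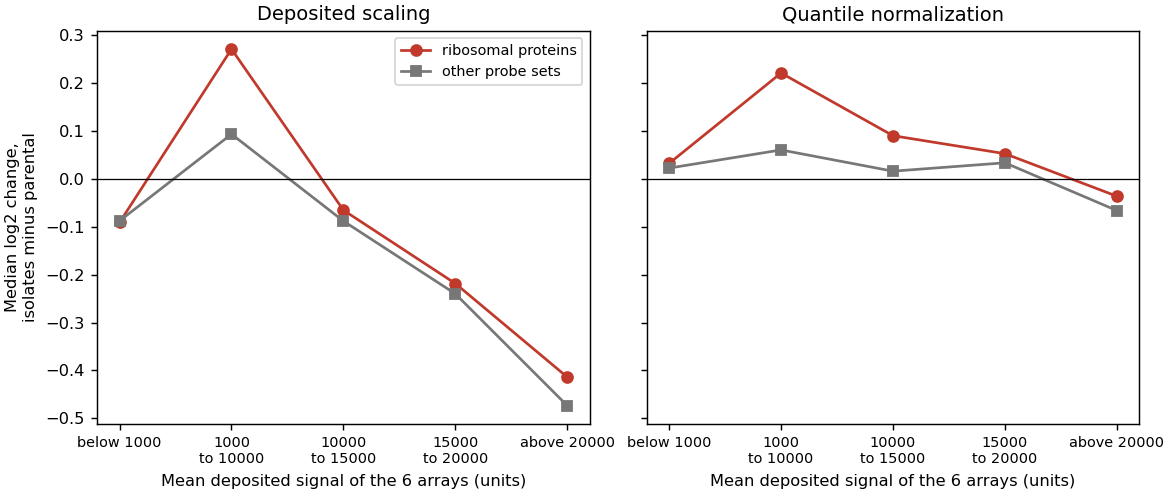
Median log2 change of the isolates against parental (y axis) in 5 ranges of mean deposited signal (x axis) for ribosomal protein probe sets (red circles) and other probe sets (grey squares). On the deposited scale (left) both medians fall from 10000 units upward, to -0.41 and -0.47 above 20000 units; after quantile normalization (right) they are -0.04 and -0.07 there.

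Among the 25 members below 10000 units, 4 were lower (16%) and 6 higher (24%) on the deposited scale, with a median log2 change of 0.02, and all 6 rises on that scale lay in this group. Of 11626 other probe sets below 10000 units, 22.2% were lower and 20.3% higher, with a median of -0.04, so the members' shares lay near these. For the 10 members between 1000 and 10000 units, the median was 0.27 on the deposited scale and 0.22 after quantile normalization, against 0.09 and 0.06 for 2801 other probe sets. The low-signal members include alternative probe sets of genes that also have a bright one, and paralogues with restricted roles.

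In the small subunit, 15 of 35 probe sets were lower and 3 higher, with a median log2 change of -0.25, and in the large subunit 19 of 54 were lower and 3 higher, with a median of -0.17. After quantile normalization the counts were 5 lower and 11 higher, and 4 lower and 14 higher. The head of the small subunit, which holds the mRNA entry side and contacts the tRNAs, had 10 lower and no higher calls among 17 probe sets, and 4 lower and 3 higher after quantile normalization. Those quantile counts lay near the 19.5% and 22.9% of all probe sets, and on the deposited scale 42.8% of 145 other probe sets at or above 10000 units were lower.

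RPS18 sits in that head near the tRNAs. Its signal was 25962 and 31780 units for parental, 17408 and 18924 for S1a, and 22613 and 18488 for S1b. Both parental arrays lay above all 4 isolate arrays. The log2 change was -0.58 (SE 0.11, limma adjusted p = 0.00221) on the deposited scale. After quantile normalization the signals were 24245 and 23576 units for parental, 20512 and 20644 for S1a and 22788 and 20080 for S1b, and the change was -0.19 (limma adjusted p = 0.019). RPS18 was thus lower on both scales, by less on the second.

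RPS19, the small-subunit protein first tied to Diamond-Blackfan anaemia, gave 28335 and 32938 units for parental, 19332 and 20309 for S1a, and 24077 and 21119 for S1b with its brighter probe set. Its log2 change was -0.53 (limma adjusted p = 0.00143). It did not pass after quantile normalization, where the change was -0.06 (limma adjusted p = 0.323). RPS10, which lies at the mRNA entry side, had 3 bright probe sets that measured it alike, with log2 changes from -0.53 to -0.51. The one with the largest fall read 30888 and 41980 units for parental, 22870 and 24884 for S1a, and 27469 and 24862 for S1b. The second parental array exceeded the first by more than the first exceeded any S1b array. On the quantile scale these 3 changes lay between -0.04 and -0.02, with limma adjusted p-values from 0.381 to 0.794.

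RPS15, RPS3 and RPS28, also of the head, passed on both scales; they and the members named below as chosen later were picked after their values were seen. RPS15, close to the decoding centre, read 22475 and 27385 units for parental, 16287 and 17846 for S1a, and 19430 and 16238 for S1b, a log2 change of -0.51 and, after quantile normalization, of -0.17 (limma adjusted p = 0.015). RPS3, at the mRNA entry channel, read 20344 and 26523, 15890 and 17032, and 18684 and 16426 units in the same order, with changes of -0.45 and -0.14. For RPS28 the brightest probe set changed by -0.33 and -0.19, and its other probe sets, at 44.1 to 377 units, by 0.02 and 0.34 on the deposited scale without passing. The probe sets of RPS28 thus disagreed in sign.

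RPS4X, whose gene lies on the X chromosome and has no tract at its annotated start, is part of the small-subunit body. Its brighter probe set read 25424 and 30951 units for parental, 18376 and 19634 for S1a, and 19610 and 19505 for S1b. All 4 isolate arrays lay well below both parental ones and close to each other. The log2 change was -0.54 (SE 0.096, limma adjusted p = 0.00125), and -0.14 after quantile normalization (limma adjusted p = 0.0402). The other probe set changed by -0.42 and, on the quantile scale, by -0.08 (limma adjusted p = 0.244). RPS4Y1, its Y-linked copy, lay below the signal minimum and was not tested.

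RPS6, the substrate of the S6 kinases, did not pass on the deposited scale. Its brightest probe set read 18943 and 19896 units for parental, 17454 and 17448 for S1a, and 20186 and 18389 for S1b, so S1b overlapped parental. The log2 change was -0.08 (limma adjusted p = 0.444), and on the quantile scale 0.18 (limma adjusted p = 0.0273). The 3 tested RPS6 probe sets ran from -0.19 to -0.01 on the deposited scale and disagreed in sign on the quantile scale. There 200081_s_at read 15905 and 14029 units for parental, 16247 and 14563 for S1a, and 14537 and 14182 for S1b. RPS29 and RPS23, chosen later, showed the same split between scales as the brightest RPS6 probe set. RPS29 read 24132 and 26446 units for parental, 21796 and 23724 for S1a, and 26722 and 23936 for S1b, with a change of -0.08 that did not pass and one of 0.33 on the quantile scale (limma adjusted p = 0.000436). RPS23, at the decoding centre, changed by -0.25 without passing and by 0.22 on the quantile scale (limma adjusted p = 0.0025).

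In the large subunit, proteins around the rim of the polypeptide exit tunnel, where nascent chains leave the ribosome, had 5 lower and 1 higher call among 7 probe sets, and 1 of each after quantile normalization. Of all probe sets, 22.6% were lower and 20.1% higher on the deposited scale, and 19.5% and 22.9% on the quantile scale. Other bright probe sets were also often lower as deposited, 86.4% of 22 above 20000 units and 48.4% of 31 between 15000 and 20000 units. RPL39, a very small protein in the tunnel wall, read 28311 and 33131 units for parental, 20958 and 22378 for S1a, and 23008 and 19661 for S1b. Its groups did not overlap, and the log2 change was -0.51 (SE 0.10, limma adjusted p = 0.0023). The quantile change was -0.04 (limma adjusted p = 0.477). RPL41, the smallest ribosomal protein, read 26044 and 35003 units for parental, 18927 and 21065 for S1a, and 23230 and 21032 for S1b. Its log2 change was -0.52 (limma adjusted p = 0.00541), and -0.08 on the quantile scale (limma adjusted p = 0.155).

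RPL34 was lower on both scales. It read 19734 and 23490 units for parental, 14642 and 16388 for S1a, and 15811 and 14439 for S1b. Every isolate array was below both parental arrays, and S1a and S1b overlapped. RPL34 changed by -0.49 on the log2 scale (SE 0.098, limma adjusted p = 0.00241). On the quantile scale the signals were 19324 and 19043 units for parental, 16880 and 17685 for S1a, and 15375 and 15116 for S1b, and the change was -0.24 (limma adjusted p = 0.00189). Under median centring RPL34 was at -0.30 (limma adjusted p = 0.0737) and did not pass.

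RPL31, at the tunnel exit, was measured by 3 probe sets that went different ways. The bright one read 23403 and 25865 units for parental, 17576 and 18496 for S1a, and 21278 and 18781 for S1b, a log2 change of -0.37 (limma adjusted p = 0.00699) and of -0.02 on the quantile scale. A dim one (200962_at) read 318 and 253 units for parental, 176 and 161 for S1a, and 127 and 127 for S1b. Its change of -0.94 (SE 0.17, limma adjusted p = 0.00121) was the largest fall among the members and was -0.84 on the quantile scale. Another dim one (221593_s_at) read 288 and 293 units for parental, 387 and 375 for S1a, and 349 and 353 for S1b, a rise of 0.33 (limma adjusted p = 0.0386). That rise did not pass when any 1 of the 6 arrays was left out (limma adjusted p from 0.0712 to 0.11). RPL31 was the only gene of the 21 with several tested probe sets that was called in both directions.

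RPL38, which is known for its part in translating Hox mRNAs, also had 3 probe sets. The dimmest (221943_x_at) read 2247 and 2226 units for parental, 1292 and 1602 for S1a, and 1296 and 1524 for S1b, with a log2 change of -0.65 (SE 0.10, limma adjusted p = 0.000639) and of -0.71 on the quantile scale. A second (202028_s_at) changed by -0.32 and, on the quantile scale, by -0.38, and passed on both. The brightest read 15010 and 18115 units for parental, 13612 and 15066 for S1a, and 16679 and 14733 for S1b, and its change of -0.14 did not pass. On the quantile scale the brightest probe set was at 0.07. The size of the change in RPL38 therefore depended on the probe set, and so did its sign on the quantile scale.

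The stalk, which recruits translation factors to the large subunit, was measured through RPLP1 and RPLP2. RPLP1 read 18911 and 23777 units for parental, 18588 and 19012 for S1a, and 21170 and 18833 for S1b. Its log2 change of -0.13 did not pass (limma adjusted p = 0.341), and on the quantile scale it was 0.18 (limma adjusted p = 0.0144). Without the first parental array RPLP1 was called lower at -0.30, and without the second it was at 0.03. RPLP2 was represented by a probe set of 116 to 205 units, with a change of -0.41 that did not pass (limma adjusted p = 0.126).

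RPL11, which with RPL5 and the 5S RNA forms the particle that binds MDM2, read 15015 and 17215 units for parental, 12808 and 13507 for S1a, and 15077 and 13250 for S1b. The first S1b array lay above the first parental array. The log2 change was -0.24 (limma adjusted p = 0.0582), and on the quantile scale -0.06 (limma adjusted p = 0.286). Without the first parental array it was -0.34 and passed. RPL7 at -0.13 and RPL3, which reaches the peptidyl transferase centre, at -0.10 did not pass either. Without the first parental array both were called lower, at -0.31 and -0.33, and without the second they were at 0.04 and 0.13. On the quantile scale RPL7 was called higher at 0.24 with 1 probe set and at 0.33 with the other, and RPL3 was at 0.09 without passing.

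On the deposited scale the rises were few, and most were seen in dim probe sets of genes that also had a bright one. After quantile normalization 19 of the 25 members called higher were at or above 10000 units. RPS21, a small-subunit protein at the platform side, showed the largest called rise. With 214097_at it read 1753 and 1967 units for parental, 4018 and 4273 for S1a, and 3821 and 3157 for S1b. All 4 isolate arrays were above both parental arrays. For this probe set the log2 change was 1.03 (SE 0.094, limma adjusted p = 1.75e-05) and 0.99 on the quantile scale. The bright probe set of RPS21 read 22536 and 26747 units for parental, 18537 and 21664 for S1a, and 22896 and 20433 for S1b, with a change of -0.24 that did not pass (limma adjusted p = 0.0919). On the quantile scale it was 0.14 (limma adjusted p = 0.0347).

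RPL22, an RNA-binding protein of the large subunit that is dispensable for most translation, had 5 probe sets, all with a change above 0. The dim 214042_s_at read 2199 and 2022 units for parental, 3843 and 3788 for S1a, and 2882 and 2861 for S1b. The 3 populations did not overlap, with S1a highest. The log2 change of the isolates was 0.65 (SE 0.073, limma adjusted p = 7.23e-05) and 0.61 on the quantile scale. The dim 221726_at read 1944 and 2090 units for parental, 3074 and 2900 for S1a, and 2186 and 2237 for S1b, a change of 0.35 (limma adjusted p = 0.00385). The 3 bright probe sets changed by 0.08 to 0.16 without passing, and by 0.21 to 0.28 on the quantile scale, where all 3 passed. The brightest read 11983 and 13314 units for parental, 12830 and 13410 for S1a, and 14386 and 13006 for S1b.

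RPS27L, a p53-inducible paralogue of RPS27, rose while RPS27 fell on the deposited scale. RPS27L read 4208 and 3957 units for parental, 5565 and 5604 for S1a, and 5337 and 4921 for S1b, with no overlap. Its log2 change was 0.39 (SE 0.075, limma adjusted p = 0.00197) and 0.36 on the quantile scale (limma adjusted p = 0.00129). RPS27 read 21391 and 26384 units for parental, 17182 and 18241 for S1a, and 18936 and 18902 for S1b, a change of -0.38 (limma adjusted p = 0.0103). On the quantile scale RPS27 was at -0.05 and did not pass (limma adjusted p = 0.435), and its deposited call ended without the first S1a array (limma adjusted p = 0.0507). The difference between both genes was not tested, and their windows above differ in the tract.

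The other paralogues gave smaller or less certain values. RPL36AL read 9315 and 9593 units for parental, 10339 and 10593 for S1a, and 11571 and 10325 for S1b; its log2 change was 0.18 without passing and 0.25 on the quantile scale (limma adjusted p = 0.00415). RPL26L1 read 3651 and 3954 units for parental, 4437 and 4303 for S1a, and 4560 and 4063 for S1b, a change of 0.19 (limma adjusted p = 0.0767) that passed with 1 of the 6 arrays left out. RPL39L was at 949 to 1081 units with a change of 0.11 (limma adjusted p = 0.303). RPL10L, which replaces RPL10 in the male germ line, was at 29.4 to 109 units with a change of -0.78 (limma adjusted p = 0.16). It was called lower only when the second S1b array was left out.

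RPS9, chosen later because its arrays overlapped, was called higher with 214317_x_at. That probe set read 4726 and 3123 units for parental, 6876 and 8497 for S1a, and 5104 and 3960 for S1b, so S1b lay on the parental level. The log2 change was 0.61 for both isolates (limma adjusted p = 0.0115), 0.99 for S1a and 0.23 for S1b. The brighter probe set of RPS9 changed by 0.07 (limma adjusted p = 0.544). RPL35A had the highest fitted change of all members, 1.09, in a probe set whose parental arrays read 18.9 and 33.2 units, below the minimum; it did not pass (limma adjusted p = 0.124), and the bright RPL35A probe set was at -0.04.

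**Figure D4:**
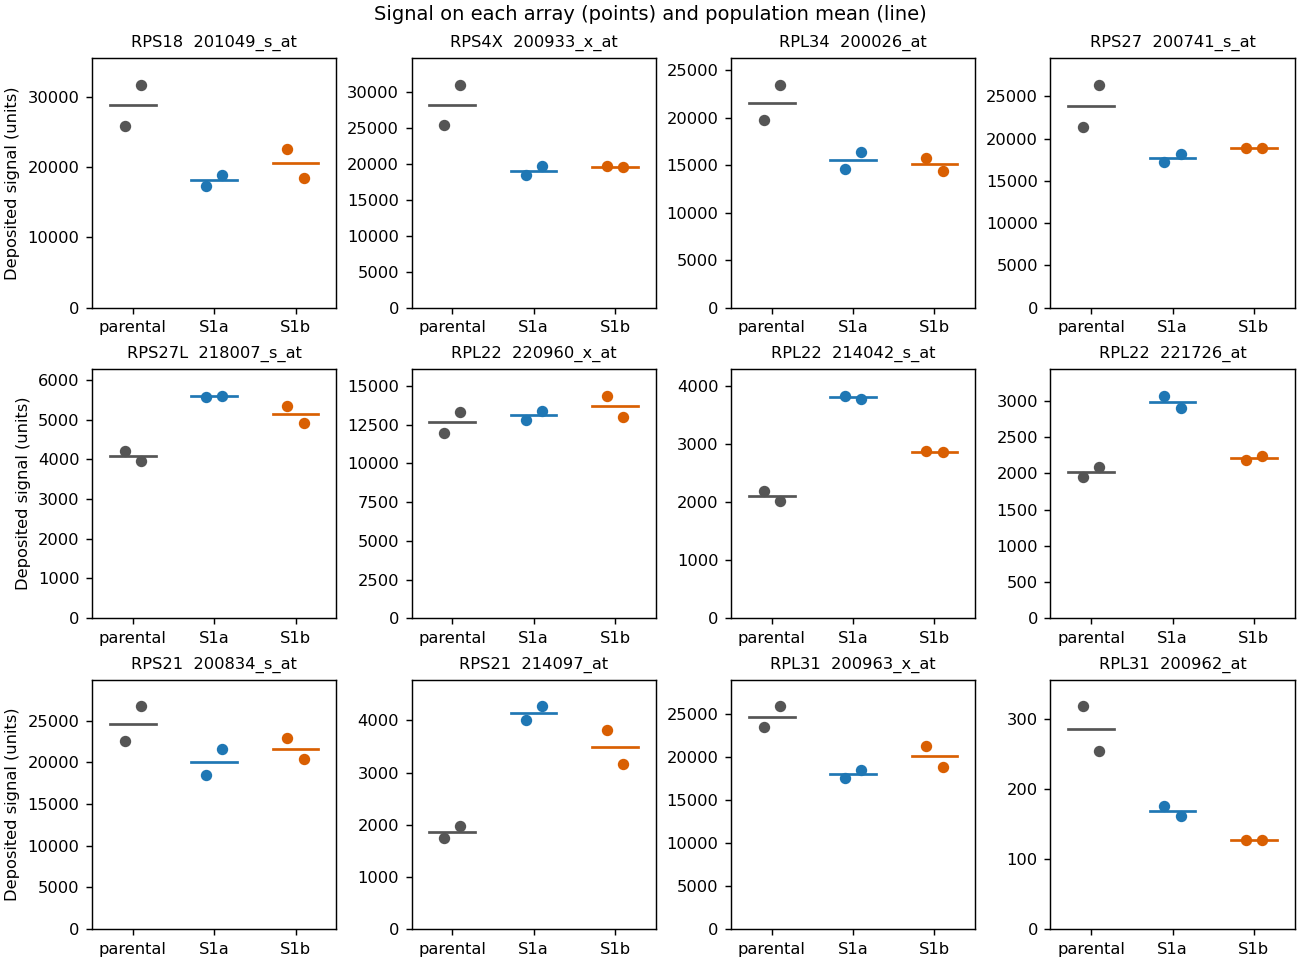
Deposited signal in units (y axis, from 0) of 12 ribosomal protein probe sets by population (x axis); points are arrays and lines are means of 2 arrays. RPS18, RPS4X, RPL34 and RPS27 have both parental arrays above all isolate arrays, RPS27L and the dim RPL22 and RPS21 probe sets have both below, and the bright RPL22 (220960_x_at) and RPS21 (200834_s_at) probe sets overlap.

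Of 21 genes with more than 1 tested probe set, 8 had probe sets with opposite signs. The probe set names mark shared probes, with 31 tested members ending in _x_at, which can bind related transcripts, 36 in _s_at, shared by transcripts of a family, and 22 in plain _at. Ribosomal protein genes have many near-identical processed pseudogenes, so members with shared probes are uncertain. On the deposited scale, lower and higher calls were 14 and 1 for _x_at (45.2% and 3.23%) and 16 and 3 for _s_at (44.4% and 8.33%). For plain _at they were 4 and 2 (18.2% and 9.09%). Among all probe sets tested 22.6% were lower and 20.1% higher, so in this fit the lower share of plain _at members was not above that. When plain _at probe sets were fitted alone, 27.3% of members were lower, against 20% of all plain _at probe sets. With each gene taken by its brightest probe set, 25 of 56 genes were lower and 1 was higher, and after quantile normalization 6 were lower and 14 higher. Groups that did not overlap between both parental and all 4 isolate arrays were seen for 33 of the 34 lower calls and 5 of the 6 higher calls. Among all 89 members, 38 (42.7%) lay fully below and 9 (10.1%) fully above, against 29.5% and 24.8% of all probe sets.

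On the deposited scale genes with and without the tract had more lower than higher calls, and on the quantile scale fewer. The 33 tested genes with a tract had a median log2 change of -0.34, with 17 lower and 0 higher, and the 16 without one had -0.17, with 5 lower and 1 higher. At an adjusted p below 0.05 on the quantile scale, limma called 3 lower and 7 higher with a tract, and 3 lower and 5 higher without, with medians of -0.03 and 0.09. Of all probe sets, 22.6% were lower and 20.1% higher on the deposited scale, and 19.5% and 22.9% on the quantile scale. Their median signals also differed, 19800 units with a tract and 17400 without, and the part of that in the difference was not tested. RPS4X and RPS15, lower on both scales, had no tract at the annotated start. RPS18 had one, and RPL34 had one at 1 of its 2 annotated starts. Of the genes linked to Diamond-Blackfan anaemia, 11 of 26 probe sets were lower (42.3%) and 1 higher (3.85%), near the 38.2% and 6.74% of all members. On the quantile scale 2 were lower (7.69%) and 4 higher (15.4%), against 10.1% and 28.1% of all members.

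Both isolates are set against the same 2 parental arrays, so their comparisons share them. For S1a against parental, 34 members were lower and 7 higher, against 18.6% and 16.8% of all probe sets, with a median log2 change of -0.25. After quantile normalization 7 were lower and 24 higher, against 16.6% and 18.7%. The count of lower calls was 5 without the first S1a array and 20 without the second. For S1b against parental, 21 were lower and 3 higher, against 20.1% and 17.8%, with a median of -0.17, and after quantile normalization 11 were lower and 20 higher, against 17.8% and 20.4%. That count of lower calls was 45 without the first parental array and 12 without the second, 13 and 14 without the first and the second S1a array, and 9 and 5 without the first and the second S1b array. The count of higher calls was 6 without the first parental array and 2 without the first S1b array. Under median centring 4 members were lower and 11 higher in S1a, against 10.5% and 26.7% of all probe sets, and 2 lower and 11 higher in S1b, against 12.4% and 28%. The S1b median was then 0.03. With cyclic loess 35 members were lower in S1b, against 18.9% of all probe sets.

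The named members show both isolates side by side. RPS18 changed by -0.66 in S1a and by -0.49 in S1b, RPS4X by -0.56 and -0.52, and RPL34 by -0.47 and -0.51, all past the threshold. RPS27L changed by 0.45 and 0.33 and RPS21 (214097_at) by 1.16 and 0.90, again past it in both. RPS19 was at -0.62 and -0.44 and RPL39 at -0.50 and -0.53. RPL22 with 214042_s_at rose by 0.85 in S1a and 0.44 in S1b, and with 221726_at by 0.57 in S1a, while its S1b change of 0.13 did not pass.

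Between S1b and S1a, 2 members were lower and 0 higher in limma, against 1.07% and 0.236% of all probe sets. Both were the dim RPL22 probe sets. For 214042_s_at S1b was at -0.41 (SE 0.085, limma adjusted p = 0.0484) and for 221726_at at -0.43 (SE 0.087, limma adjusted p = 0.0446), and both also passed after quantile normalization, where 0.86% of all probe sets were lower. Under median centring neither passed, against 0.818% of all probe sets, and with cyclic loess 2 members were lower against 1.04%. These calls were close to the threshold, and neither passed when an S1a or S1b array was left out (limma adjusted p from 0.159 to 0.324). The median log2 difference of the members was 0.10, with 68 above and 21 below 0, and after quantile normalization it was -0.01.

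The machinery that builds and regulates ribosomes was compared through other lists, each to be read against 22.6% lower and 20.1% higher among all probe sets on the deposited scale and 19.5% and 22.9% on the quantile scale. Of 88 probe sets of nucleolar ribosome assembly factors (64 genes), 44 (50%) were higher and 4 lower in the isolates, with a median log2 change of 0.28. After quantile normalization 46 were higher and 3 lower, with cyclic loess 43 and 4, and under median centring 58 and 0. Of all probe sets, 21.5% were higher with cyclic loess and 31.3% under median centring. The direction of this list held under all 4 scalings, while that of the ribosomal proteins did not. This list was not compared within signal ranges. Between 1000 and 10000 units, where the factors named next lay, 2801 probe sets other than ribosomal proteins were tested. Of these, 35.6% were higher on the deposited scale and 33.2% on the quantile scale. NOLC1, a chaperone of small nucleolar particles, read 2714 and 3213 units for parental, 5185 and 5208 for S1a, and 4900 and 5335 for S1b, a change of 0.80 (SE 0.086, limma adjusted p = 5.32e-05). IMP3, of the small-subunit processome, rose by 0.77, FTSJ3, an rRNA methyltransferase, by 0.73 and DDX21, a nucleolar helicase, by 0.64.

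Another 3 nucleolar genes, FBL, NCL and NPM1, were chosen after their values were seen. FBL, the methyltransferase of box C/D particles, read 5786 and 6596 units for parental, 7256 and 6827 for S1a, and 8155 and 7166 for S1b, a change of 0.25 (limma adjusted p = 0.0431). NCL, nucleolin, was at -0.10 and did not pass (limma adjusted p = 0.292). NPM1, nucleophosmin, read 20865 and 29620 units for parental, 17534 and 19042 for S1a, and 20199 and 18500 for S1b. Its change was -0.40 (limma adjusted p = 0.0269) and, on the quantile scale, -0.05 (limma adjusted p = 0.439). NPM1 lies in the signal range of the bright ribosomal proteins and changed in the same way between scales.

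Of 18 probe sets of the RNA polymerase I machinery, 4 were higher (22.2%) and 0 lower, and 5 (27.8%) and 0 on the quantile scale. The higher shares lay near the 20.1% and 22.9% of all probe sets. POLR1E rose by 0.56, and TAF1B and TAF1C of the promoter selectivity factor by 0.50 and 0.49. UBTF, which opens rDNA for transcription, was at 0.44 without passing (limma adjusted p = 0.0647) and at 0.58 on the quantile scale (limma adjusted p = 0.0197).

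Translation factors listed as having 5′ TOP mRNAs gave 14 higher and 5 lower calls among 48 probe sets, with a median of 0.10. On the quantile scale 22 were higher and 2 lower. The starts of these genes were not examined for the tract here. EEF1A1, which brings aminoacyl-tRNA to the ribosome, read 31857 and 37854 units for parental, 22824 and 24808 for S1a, and 26932 and 25530 for S1b, a change of -0.48 (limma adjusted p = 0.00276) that was -0.01 on the quantile scale (limma adjusted p = 0.885); it was chosen after its values were seen. EEF2, the translocation factor, was lower on both scales, at -0.46 and -0.40. IPO5, an importin for ribosomal proteins, rose by 0.62 and EIF3K by 0.44. The list therefore held changes in both directions.

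Of 58 probe sets of other initiation factors, 21 were higher and 9 lower, and 22 and 10 on the quantile scale. EIF3J at 0.97 and EIF2B2 at 0.75 were higher, and EIF4H at -0.96 and EIF2S3 at -1.51 lower. In the list of mTORC1 and TOP mRNA control, 4 of 25 were higher (16%) and 5 lower (20%), and 6 and 4 on the quantile scale, near the shares of all probe sets. EIF4EBP1, the repressor of cap-dependent initiation, rose by 0.67, RRAGA by 0.54 and LARP4 by 0.54, and RRAGC, like RRAGA a GTPase that recruits mTORC1, was at -0.67. LARP1, which binds the tract, read 3920 and 4173 units for parental, 3810 and 3915 for S1a, and 4482 and 4516 for S1b, a change of 0.04 (limma adjusted p = 0.655).

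Among 13 probe sets of the MYC network, 3 were higher (23.1%) and 1 lower, and 4 and 0 on the quantile scale, and the higher share on the deposited scale lay near the 20.1% of all probe sets. MYC, a driver of ribosome production, read 2093 and 2093 units for parental, 2345 and 2284 for S1a, and 2349 and 2526 for S1b. All isolate arrays lay above both parental ones, but the change of 0.18 did not pass (limma adjusted p = 0.0697). MXI1 was at 0.72, MLX at 0.30 and MNT, a repressor of the network, at -0.50, all past the threshold on the deposited scale. MNT did not pass after quantile normalization (limma adjusted p = 0.0845) or with cyclic loess (limma adjusted p = 0.077), and the second S1a array of MXI1, at 419 units, lay below the first parental array, at 450 units. Of 4 probe sets for the response to free ribosomal proteins, 1 was higher, GADD45A at 0.31 (limma adjusted p = 0.0407), and CDKN1A at -0.23 did not pass. The second S1a array of GADD45A, at 2109 units, lay below the second parental array, at 2127 units, and GADD45A did not pass after quantile normalization (limma adjusted p = 0.0878) or with cyclic loess (limma adjusted p = 0.0543). FAU, whose product carries the ribosomal protein S30, was at -0.14 (limma adjusted p = 0.218).

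**Figure D5:**
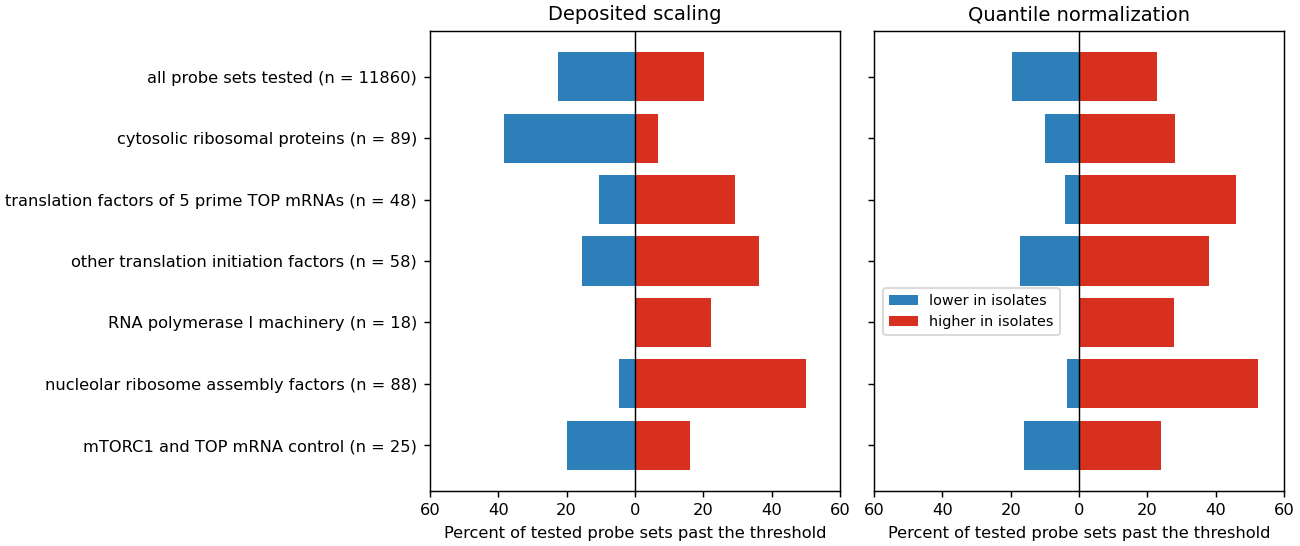
Percent of tested probe sets past the threshold (x axis, lower in the isolates to the left in blue and higher to the right in red) for all probe sets and 6 lists (y axis, n is the number of tested probe sets), on the deposited scale (left) and after quantile normalization (right). The ribosomal protein bar changes from 38.2% lower and 6.74% higher to 10.1% and 28.1%, and the assembly factor bar stays at 50% and 52.3% higher.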

How the data were processed

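Total RNA labelled with biotin was measured on 6 Affymetrix arrays. Each probe set had 1 deposited intensity, not log-transformed, and the submitters' processing notes name MAS5, without a version, as the authors' tool. Background correction was not repeated, and no detection calls were used, so no probe set was called absent. The 62 controls among 22277 probe sets were left out. An annotation table gave 1 symbol for 19064 probe sets, several for 1043 and none for 2108, and symbols of 19052 were updated through RefSeq (GRCh38.p14).

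With limma 3.58.1 in R 4.3.3, 3 group means were fitted to log2(signal + 3.949), the pseudocount being the 10th percentile, for 11860 probe sets above the 40th percentile of mean signal, with a variance trend (7.36 prior and 3 residual degrees of freedom). Benjamini-Hochberg adjustment ran over all probe sets in each contrast. Standard errors and adjusted p-values of single probe sets are from this fit. The procedure was tested on simulated data.

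The members and lists were chosen with earlier results of these data known. The members named were the 10 largest falls and up to 10 largest rises past the threshold whose arrays do not overlap, up to 8 each way for S1b against S1a, fixed genes (stalk, 5S particle, RPS6, RPS4X, RPS18, RPS19, RPL34, paralogues), and 4 genes per list with the smallest p. A gene was described by its brightest probe set. Others are said to have been chosen after their values were seen, as were RPL35A and the second probe sets of named genes. Other scalings, pseudocounts, filters, units of the fit, variance models and left-out arrays were tried.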

Additional observations from a re-analysis of the deposited data

Results flagged for a closer look

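S1b was called lower than S1a in 2 ribosomal protein probe sets (2.25%), both of RPL22, by a direct test of the difference between the isolates. Of all probe sets, 1.07% were called lower in this comparison. The log2 value of S1b minus S1a was -0.409 (SE 0.0847, limma adjusted p = 0.0484) for 214042_s_at and -0.432 (SE 0.0866, limma adjusted p = 0.0446) for 221726_at, with both S1a arrays above both S1b arrays in each. For 214042_s_at the adjusted p over the other settings tried ran up to 0.318 and for 221726_at up to 0.324. Under median centring neither of these probe sets was called. The 3 brighter RPL22 probe sets were not called in this comparison.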

How the results depend on the processing

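After quantile normalization the lower and higher calls among ribosomal proteins were 9 and 25 for both isolates, 7 and 24 for S1a and 11 and 20 for S1b, and the median log2 changes turned to 0.0362, 0.0401 and 0.0486, and to -0.0138 for S1b minus S1a. Median centring gave 4 and 12, 4 and 11, and 2 and 11, with medians of -0.0173, -0.0597 and 0.032, 0 lower calls for S1b against S1a and 0 among assembly factors. Cyclic loess gave 35 lower calls in S1b. Single members that turned under quantile normalization and median centring were RPL7 at 0.24 and 0.0597, RPLP1 at 0.185 and 0.0642, RPS6 at 0.184 and 0.112, and RPL3 at 0.0895 and 0.0941. The cause was not tested. Of the other single values, 17 kept their side of the threshold under quantile normalization and 13 under median centring, and cyclic loess, either pseudocount and the stricter filter kept 27 to 30.

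Without a variance trend the lower calls were 16 for both isolates (18%, against 19.4% of all probe sets), 9 in S1a, 5 in S1b, 0 for S1b against S1a and 1 among assembly factors. Without a signal filter they were 8 in S1b and 0 for S1b against S1a, and a pseudocount of 1 left 1 there. Plain _at probe sets, fewer by construction, gave 6 lower and 2 higher calls for both isolates, 8 and 2 in S1a, 4 and 1 in S1b, 1 lower for S1b against S1a, and 1 lower and 22 higher among assembly factors. In this fit the lower share of members for both isolates was 27.3%, against 20% of all plain _at probe sets tested. With 1 probe set per gene 1 member was higher in each comparison with parental and 0 were lower between the isolates.

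Leaving out 1 array at a time gave 20 to 51 lower and 5 to 7 higher calls for both isolates, 5 to 50 and 5 to 7 for S1a, 5 to 45 and 2 to 6 for S1b, and 0 to 3 lower for S1b against S1a; the lone array is then assumed to vary like the others. In each of these fits fewer of all probe sets were called for both isolates than with all arrays. The medians of the members ran from -0.33 to -0.134, -0.365 to -0.18, -0.276 to -0.0801 and 0.0409 to 0.171. Assembly factors gave 1 to 6 lower and 33 to 40 higher calls. RPL7 ran from -0.306 to 0.0365, RPLP1 from -0.295 to 0.0349 and RPL3 from -0.33 to 0.13, above 0 without the second parental array.

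Same-numbered arrays showed no shared deviation (correlations of 0.00024, -0.041 and -0.06). Such values from 2 arrays per population cannot settle whether the numbers pair the samples. With the replicate number as a block, 30 members were lower and 5 higher for both isolates, and 0 were lower for S1b against S1a, where the adjusted p of the RPL22 probe sets rose to 0.102 and 0.0973. RPL31 (221593_s_at) did not pass either (limma adjusted p = 0.0602). With 2 arrays per population and no detection calls, small changes and values near background are poorly determined.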

Other observations

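Ribosomal proteins of the mitochondria, which serve the separate ribosome that translates mitochondrial mRNAs, were measured by 61 tested probe sets of 50 genes. In the isolates 23 of these probe sets (37.7%) were higher and 4 (6.56%) lower in limma, with a median log2 change of 0.18, against 20.1% and 22.6% of all probe sets. After quantile normalization 22 were higher and 3 lower with a median of 0.14, against 22.9% and 19.5%. With cyclic loess 22 were higher and 4 lower, against 21.5% and 20.7%, and under median centring 35 and 2, against 31.3% and 13.3%.

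A further 57 probe sets were annotated to a cytosolic ribosomal protein together with another symbol, and 52 of them lay above the signal minimum, 43 at 10000 units or more. On the deposited scale 19 of these 52 were lower and 6 higher, with a median log2 change of -0.20, and after quantile normalization 6 were lower and 21 higher, with a median of 0.11, to be read against the same shares of all probe sets.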
